A study of Mus musculus with 28 samples.

Results

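The 8 genes described here are 6 ligands of the TNF superfamily (Tnf, Lta, Ltb, Tnfsf9, Tnfsf10 and Tnfsf15) and the 2 receptors of TNF itself (Tnfrsf1a and Tnfrsf1b), taken by name from the 54532 genes of a count table of murine bone marrow-derived macrophages (BMDMs), of which 30159 had at least 1 count. The BMDMs came from C57/B6JB mice aged 8 to 12 weeks and were grown from bone marrow in M-CSF for 7 days. In fresh medium with calcium chloride, the cultures received PBS (control, 5 cultures at each time), plasma-derived human von Willebrand factor (pd-VWF, 10 µg/ml, 5 cultures at each time) or LPS (100 ng/ml, 4 cultures at each time), and RNA was taken after 3.5 h or 16 h. VWF is the large plasma glycoprotein that tethers platelets to injured vessel walls, and LPS is the bacterial glycolipid used as the positive control. The comparisons ask how far VWF acts on macrophages as an inflammatory agonist. The human protein was given to mouse cells, and the labels number the cultures as biological replicates without saying how many mice they came from, so that the spread between cultures may include less than the spread between animals.

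Most TNF superfamily ligands are trimeric type II membrane proteins or their shed forms. The ligands signal to neighboring cells through receptors with cysteine-rich extracellular repeats. TNF is the prototype cytokine of activated macrophages. Its receptor Tnfrsf1a carries a death domain and is found on most cells, and Tnfrsf1b has no death domain and is found mainly on hematopoietic and endothelial cells. Soluble TNF engages Tnfrsf1a well, membrane TNF is the better ligand of Tnfrsf1b, and shed forms of both receptors can bind TNF in the extracellular fluid.

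The other ligands have roles of their own. Lta encodes lymphotoxin alpha, which as a homotrimer binds the TNF receptors, and Ltb encodes the membrane subunit that holds lymphotoxin alpha at the cell surface for the lymphotoxin beta receptor. Tnfsf9 is the costimulatory ligand of Tnfrsf9 on T cells, Tnfsf10 encodes the death ligand TRAIL, and Tnfsf15 is the ligand of Tnfrsf25.

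Tnf, Lta and Ltb lie side by side on chromosome 17 of GRCm38. Tnf (ENSMUSG00000024401) spans bases 35199381 to 35202007 on the minus strand, Lta (ENSMUSG00000024402) ends 1.16 kb upstream of the Tnf start site, and Ltb (ENSMUSG00000024399) lies on the other strand 5.69 to 7.57 kb downstream of it. Tnfsf9 (ENSMUSG00000035678) is also on chromosome 17, Tnfsf10 (ENSMUSG00000039304) on chromosome 3, Tnfsf15 (ENSMUSG00000050395) and Tnfrsf1b (ENSMUSG00000028599) on chromosome 4, and Tnfrsf1a (ENSMUSG00000030341) on chromosome 6.

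The 250 bases upstream of the RefSeq start are printed for Tnf and for Tnfrsf1b, the ligand and receptor with the highest levels after VWF. RefSeq gave a window for 7 of the 8 genes (GRCm38.p6), and Tnfsf9 was not matched. The windows were searched on both strands for a kappaB site, for the core of the interferon-stimulated response element (the letters GAAA, any 2 bases, and GAAA again) and for TGANTCA (an AP-1 element), and capitals mark a match.

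Tnf, chr17:35202008-35202257, minus strand: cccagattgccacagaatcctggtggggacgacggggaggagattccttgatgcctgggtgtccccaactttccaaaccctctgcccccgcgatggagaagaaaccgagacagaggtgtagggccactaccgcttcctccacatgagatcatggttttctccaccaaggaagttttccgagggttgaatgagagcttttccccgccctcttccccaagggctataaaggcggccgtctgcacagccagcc

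Tnfrsf1b, chr4:145246871-145247120, minus strand: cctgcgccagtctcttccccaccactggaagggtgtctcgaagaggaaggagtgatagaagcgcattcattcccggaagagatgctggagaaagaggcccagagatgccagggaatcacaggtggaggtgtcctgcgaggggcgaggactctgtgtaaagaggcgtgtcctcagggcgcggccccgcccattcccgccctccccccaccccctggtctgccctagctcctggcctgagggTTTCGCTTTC

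Among the 7 windows, a kappaB match was found only upstream of Ltb, the sequence GGAAAGTCCC 87 to 78 bases before the start, and such a match occurs in 3.9% of the 32851 windows of the same length. The interferon-response spelling occurred only upstream of Tnfrsf1b, 10 to 1 bases before the start, against 2.98% of all windows. TGANTCA occurred in none of the 7 and in 6.75% of all windows. These are matches of letters in a short window, and no binding was measured.

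The 3′ UTR also sets Tnf apart from the other 7 genes. The AU-rich nonamer TTATTTATT, bound by the zinc-finger protein Zfp36 and its relatives, which speed mRNA decay, was counted in the 3′ UTR of the transcript with the longest coding sequence of each gene (GENCODE M21). Tnf held 5 copies in 764 bases, Lta 1 copy in 572 bases, and the other 6 genes held 0. At least 1 copy was found in 6.91% of 20651 genes with a 3′ UTR, and 5 or more in 0.145%. The 30 bases with most copies, capitals marking the nonamers, are these.

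Tnf, bases 435 to 464 of the 3′ UTR: ttaTTATTTATTATTTATTTATTATTTATT

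Lta, bases 313 to 342 of the 3′ UTR: aaaagttaagTTATTTATTtatagagaata

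Levels are given as CPM, the count of a gene relative to the total count of its library after TMM scaling over all 28 cultures, and, where genes are set against each other, as TPM, which also divides by exon length. Total counts per culture lay between 41131209 and 77699206. Differences are log2 fold changes of edgeR's quasi-likelihood test with their SE, and adjusted p-values are Benjamini-Hochberg values over all genes tested. A gene is said to be called, or to rise or fall, at an adjusted p below 0.05 together with an absolute log2 fold change above 1. In bulk RNA, fewer cells and less RNA per cell cannot be told apart.

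Macrophage markers were high in every group, led by Lyz2, and moved with treatment. The medians of their summed TPM were 26960.4 in control, 22999 in VWF and 17607 in LPS cultures at 3.5 h, and 33251, 43945 and 16871 at 16 h. Cultures of a group resembled each other, with a median correlation of at least 0.978 to the rest of their group, apart from 2 cultures at 16 h. Control replicate 5 had a median correlation of 0.940 and summed macrophage markers of 7670 TPM, where the other 4 controls at 16 h had 30905 to 36785 TPM. LPS replicate 4 had 0.949 and 9179 TPM, where the other 3 had 16140 to 19007 TPM. Both were kept, and results that rest on them are given with and without them. At 3.5 h, LPS replicate 1 had a median correlation of 0.978 but also low summed macrophage markers, at 10570 TPM. The others of its group had 17516 to 18181 TPM. That culture was kept too.

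Markers of other cells were low and moved with treatment. The 7 T cell markers summed to 11.9 to 17.4 TPM in control, 5.52 to 7.86 TPM in VWF and 24.2 to 39.6 TPM in LPS cultures at 3.5 h. Of these, Lck had medians of 0.452 TPM in control and 30.7 TPM in LPS cultures, while Cd28 had 13.1 and 3.33 TPM, and Cd3g was at 0 counts in both groups. The 5 B cell markers summed to 13.8 to 21.2 TPM in control, 13.9 to 19.3 TPM in VWF and 1.60 to 4.35 TPM in LPS cultures at 16 h, nearly all of it Cd79b. The 5 dendritic cell markers summed to 0.616 to 1.00 TPM in control, 8.30 to 10.2 TPM in VWF and 10.4 to 12.0 TPM in LPS cultures at 3.5 h, led by Xcr1 in the treated groups. The 4 NK cell markers stayed at or under 1.35 TPM in all groups. The 7 neutrophil and 5 fibroblast markers summed to at most 124 and 145 TPM in any culture. Their part in the results on the 8 genes was not tested.

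A scaling of libraries by their totals alone, in place of TMM, shifted all genes together, and the directions of the 8 genes and of their receptors were also read on that scale. The median log2 difference of all genes tested moved from -0.01 to -0.27 for VWF and from -0.04 to -0.63 for LPS against control at 3.5 h, from -0.02 to -0.13 and from -0.03 to -0.65 at 16 h, and from 0.02 to 0.37 and 0.00 to 0.47 for VWF against LPS at 3.5 h and 16 h. The share of called genes that were higher moved from 57.6% to 39.4%, from 46.6% to 20.3%, from 45.0% to 36.5%, from 51.2% to 22.3%, from 45.1% to 75.6% and from 46.7% to 73.0% in the same order.

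After 3.5 h of VWF, 6 of the 8 genes were called and all 6 rose: Tnf, Lta, Tnfsf9, Tnfsf10, Tnfsf15 and Tnfrsf1b. Among all 14153 genes tested, 14.8% were called in either direction and 8.54% were called higher. The median log2 fold change of the 8 was 3.44, beside -0.01 over all genes tested. After 3.5 h of LPS, 7 of the 8 were called higher, all but Tnfrsf1a, where 27.5% of 14265 genes were called and 12.8% were higher.

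At 16 h the count with VWF was far smaller. With VWF only Tnfsf10 was called, of the 6 genes with enough counts to be tested, and 9.47% of 14376 genes were called, 4.26% higher. With LPS all 8 genes were called higher, where 27.9% of 14624 genes were called and 14.3% were higher. That count was 5 with scaling by library totals, which lost Ltb, Tnfsf9 and Tnfrsf1a, and 6 to 8 when single cultures were left out. In the direct comparison, 2 of the 8 genes (Lta and Tnfsf10) were lower with VWF than with LPS at 3.5 h, against 12.7% of all genes called and 6.98% lower, and all 8 were lower at 16 h, against 27.1% called and 14.5% lower. The count at 3.5 h was 1, Tnfsf10 alone, with scaling by library totals, with all groups in the fit, with a filter of 10 TPM and without VWF replicate 2 or LPS replicate 4, and without VWF replicate 5 the 2 genes were Tnfsf10 and Tnfsf15. VWF and LPS share their control cultures at each time, so their differences from control are not independent, and the direct comparison does not use the controls.

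**Figure D1:**
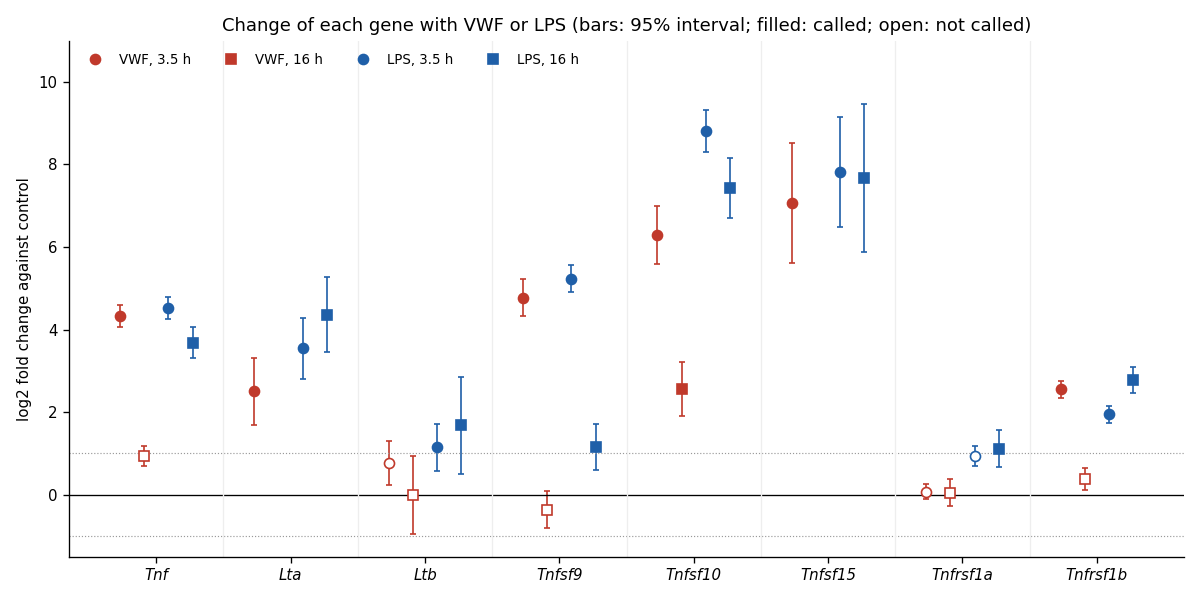
Log2 fold change of each of the 8 genes against the control of the same time (vertical axis), with bars of the 95% interval; circles are 3.5 h, squares 16 h, red VWF and blue LPS, filled symbols are called genes and dotted lines mark an absolute log2 fold change of 1. The red squares lie near 0 for all but Tnfsf10 (2.57) and Tnf (0.94), while the blue squares lie between 1.11 and 7.66; Lta and Tnfsf15 had too few counts to be tested for VWF at 16 h.

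Tnf, the cytokine that names the family, rose with both agonists at 3.5 h to overlapping levels and was still called at 16 h with LPS. At 3.5 h the control cultures had 129, 135, 101, 157 and 121 CPM, the VWF cultures 2279, 2653, 2894, 2819.6 and 2435 CPM and the LPS cultures 2991, 2739, 2891 and 2919 CPM. All treated cultures were far above all controls, and the ranges of VWF and LPS overlapped. Tnf rose by 4.32 ± 0.14 SE, adjusted p = 7.25e-10, with VWF and by 4.52 ± 0.14 SE, adjusted p = 1.25e-10, with LPS, the latter 23.0-fold on the linear scale.

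The difference between VWF and LPS in Tnf at 3.5 h was -0.21 ± 0.11 SE, adjusted p = 0.158, with a 95% interval, from the SE and the normal distribution, of -0.44 to 0.01 on the log2 scale. It was 0.13 when libraries were scaled by their totals alone, and in TPM the VWF cultures (4152 to 4364 TPM) lay above the LPS cultures (3327 to 3702 TPM). The direction thus turned with the scaling.

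After 16 h, control cultures had 25.8, 23.7, 19.3, 28.1 and 30.3 CPM, the VWF cultures 50.2, 51.7, 49.6, 53.3 and 49.5 CPM and the LPS cultures 288, 256, 338 and 390.2 CPM. The 3 groups did not overlap, with VWF narrowly above control and LPS far above both. LPS cultures were 12.8-fold above control (log2 3.68 ± 0.19 SE, adjusted p = 2.75e-07). VWF cultures were 1.92-fold above control (log2 0.94 ± 0.13 SE, adjusted p = 0.000279), which passed the p threshold and not the fold threshold, and without control replicate 5 the log2 difference was 1.03 with an adjusted p of 2.7e-05, a call.

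Tnf also fell with time in every condition. In control cultures it fell by 2.33 on the log2 scale (SE 0.16, adjusted p = 4e-06), the only call among the 6 genes tested in that comparison, where 10.9% of all genes were called and 5.56% fell. In VWF cultures it fell 50.6-fold (log2 -5.66 ± 0.12 SE, adjusted p = 7.11e-11) and in LPS cultures 8.82-fold (log2 -3.14 ± 0.16 SE, adjusted p = 7.57e-07). The VWF effect against control shrank by 3.36 between the times (log2 -3.36 ± 0.18 SE, adjusted p = 5.11e-11). The LPS effect changed by -0.86 ± 0.22 SE, adjusted p = 0.00439, under the fold threshold. The groups ranked LPS 3.5 h, VWF 3.5 h, LPS 16 h, control 3.5 h, VWF 16 h and control 16 h by mean CPM, and only the first 2 overlapped in their ranges.

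**Figure D2:**
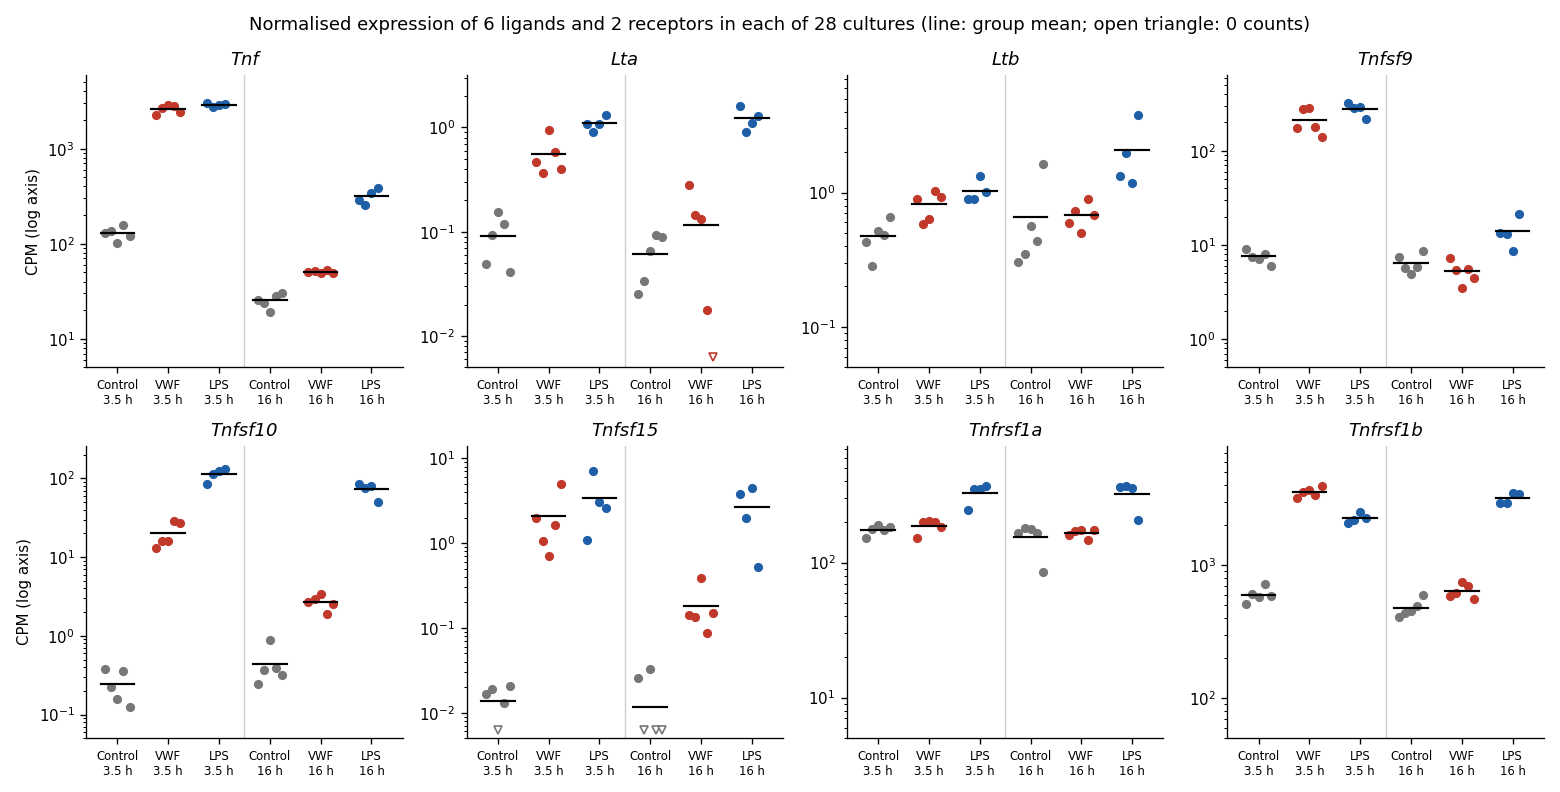
CPM of each of the 8 genes (log vertical axis, a different range in each panel) in each of the 28 cultures by group; points are cultures, black lines group means and open triangles cultures with 0 counts. For Tnf, Tnfsf9, Tnfsf10, Tnfsf15 and Tnfrsf1b the red VWF points at 3.5 h lie above all gray controls. At 16 h they have dropped toward or into the range of the 16 h controls. Those of Tnfsf10, Tnfsf15 and, narrowly, Tnf still lie above it.

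Lta, the gene next to Tnf, was close to the limit of detection. Controls at 3.5 h had 3, 5, 10, 9 and 2 counts, VWF cultures 26, 17, 46, 25 and 30 counts and LPS cultures 42, 38, 39 and 47 counts. The treated groups did not overlap with control at 3.5 h. In CPM, Lta rose with VWF (log2 2.51 ± 0.41 SE, adjusted p = 0.000393) and with LPS (log2 3.54 ± 0.38 SE, adjusted p = 6.97e-06). It was lower with VWF than with LPS (log2 -1.06 ± 0.32 SE, adjusted p = 0.0217), but their ranges overlapped, and the adjusted p was 0.0681 with scaling by library totals and 0.119 with all groups in the fit, and the call was also lost without VWF replicate 2, VWF replicate 5 or LPS replicate 4.

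At 16 h the Lta counts were 2, 3, 4, 6 and 5 in control, 18, 12, 8, 1 and 0 in VWF and 75, 47, 45 and 52 in LPS cultures. LPS cultures stood apart from the others (log2 4.36 ± 0.47 SE, adjusted p = 3.56e-05 against control). VWF and control overlapped, and with 39 against 20 counts in all Lta was below the filter for that test. The ratio of the summed counts, scaled to library size, was 2.15, with an exact 95% counting interval of 1.23 to 3.90 that leaves out the spread between cultures, and without VWF replicate 1 it was 1.45 (0.750 to 2.83). In VWF replicate 5, 0 counts allow up to 0.0563 CPM. Lta fell with time in VWF cultures (log2 -2.17 ± 0.64 SE, adjusted p = 0.0120) and did not change detectably in LPS cultures (log2 0.21 ± 0.29 SE, adjusted p = 0.574).

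Ltb was low in all groups and had the smallest log2 differences from control among the ligands at 3.5 h. Its means at 3.5 h were 0.474 ± 0.138 CPM (SD, n = 5) in control, 0.817 ± 0.197 CPM (SD, n = 5) in VWF and 1.03 ± 0.203 CPM (SD, n = 4) in LPS cultures. The VWF cultures overlapped with control and were not called (log2 0.76 ± 0.27 SE, adjusted p = 0.0449), and the LPS cultures were called (log2 1.15 ± 0.29 SE, adjusted p = 0.00527). With scaling by library totals the LPS difference was 0.55 with an adjusted p of 0.114.

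The 16 h Ltb value of the LPS cultures rested on which cultures were kept. The controls had 0.306, 0.348, 0.560, 0.433 and 1.64 CPM, of which the highest is replicate 5, the VWF cultures 0.596, 0.728, 0.500, 0.896 and 0.675 CPM and the LPS cultures 1.32, 1.96, 1.19 and 3.75 CPM, of which the highest is replicate 4. Ltb was called with LPS in the full fit (log2 1.68 ± 0.60 SE, adjusted p = 0.0429), at 1.92 with an adjusted p of 0.000269 without both outlying cultures, and it was at 1.20 with an adjusted p of 0.126 without LPS replicate 4 alone. The call was lost in 7 of the 9 fits that left out 1 culture (all but those without control replicate 5 or LPS replicate 3), and with scaling by library totals (1.11 with an adjusted p of 0.0906). Between VWF and control the difference was -0.01 ± 0.48 SE, adjusted p = 0.992, and 0.69 with an adjusted p of 0.0793 without control replicate 5. Across the 3 neighboring genes, in TPM, Tnf reached medians of 4189 with VWF and 3526 with LPS at 3.5 h, while no culture of the series had 10 TPM of Lta or Ltb.

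Tnfsf9, the costimulatory ligand, had a brief response to both agonists. At 3.5 h the controls had 9.15, 7.50, 7.01, 8.10 and 5.99 CPM, the VWF cultures 173, 278, 283, 178 and 141 CPM and the LPS cultures 321, 283, 292 and 219 CPM. Every treated culture was above every control, and VWF and LPS overlapped. Tnfsf9 rose 27.3-fold with VWF (log2 4.77 ± 0.23 SE, adjusted p = 1.31e-08) and 37.6-fold with LPS (log2 5.23 ± 0.16 SE, adjusted p = 1.68e-10). Between VWF and LPS the difference was -0.48 ± 0.21 SE, adjusted p = 0.0832, with a 95% interval of -0.88 to -0.08.

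At 16 h Tnfsf9 was back near control: 7.46, 5.64, 4.91, 5.87 and 8.52 CPM in control, 7.27, 5.44, 3.52, 5.54 and 4.44 CPM in VWF and 13.4, 12.9, 8.60 and 21.2 CPM in LPS cultures. VWF cultures overlapped with control (log2 -0.36 ± 0.23 SE, adjusted p = 0.323). LPS cultures stood just above control and were called (log2 1.16 ± 0.28 SE, adjusted p = 0.00719), while without LPS replicate 4 the difference was 0.88 with an adjusted p of 0.0158 and without both outlying cultures 1.02 with an adjusted p of 0.000816. With scaling by library totals it was 0.53 with an adjusted p of 0.0771. The VWF effect shrank by 5.10 between the times (log2 -5.10 ± 0.33 SE, adjusted p = 3.95e-10) and the LPS effect by 4.10 (log2 -4.10 ± 0.33 SE, adjusted p = 2.65e-08). Of the Tnfsf9 exon bases 14.9% are overlapped by Gm11110 on the other strand, and since the strand setting of the counting is not given in the sources used here, reads of the 2 genes cannot be told apart there.

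Tnfsf10, encoding TRAIL, had the largest log2 difference between the agonists among the 8 genes at both times. At 3.5 h the controls had 0.380, 0.225, 0.156, 0.353 and 0.124 CPM, the VWF cultures 13.1, 16.2, 15.9, 28.9 and 27.2 CPM and the LPS cultures 83.8, 114, 126 and 131 CPM. The 3 groups did not overlap. Tnfsf10 rose with VWF (log2 6.29 ± 0.35 SE, adjusted p = 3.99e-08) and 451-fold with LPS (log2 8.82 ± 0.26 SE, adjusted p = 1.17e-10), and it was 5.88-fold lower with VWF than with LPS (log2 -2.55 ± 0.24 SE, adjusted p = 7.11e-06).

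At 16 h the Tnfsf10 values were 0.242, 0.371, 0.873, 0.386 and 0.317 CPM in control, 2.68, 2.90, 3.38, 1.92 and 2.55 CPM in VWF and 84.6, 75.1, 80.6 and 50.3 CPM in LPS cultures, again without overlap. It was the only one of the 6 genes tested that was still called with VWF (log2 2.57 ± 0.33 SE, adjusted p = 0.000229). Without control replicate 5 it remained called at an adjusted p of 0.000188. LPS cultures were 172-fold above control (log2 7.43 ± 0.37 SE, adjusted p = 2.08e-07), and VWF cultures were 28.1-fold below LPS (log2 -4.81 ± 0.19 SE, adjusted p = 3.51e-08). The VWF effect shrank by 3.69 (log2 -3.69 ± 0.47 SE, adjusted p = 4.93e-06) and the LPS effect by 1.41 (log2 -1.41 ± 0.44 SE, adjusted p = 0.0164).

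Tnfsf15 was all but silent in control and varied widely between cultures of a treated group. Controls had 1, 1, 0, 1 and 1 counts at 3.5 h and 2, 0, 2, 0 and 0 counts at 16 h. VWF cultures had 111, 49, 34, 70 and 380 counts and LPS cultures 43, 294, 110 and 93 counts at 3.5 h. A control culture with 0 counts allows up to 0.0467 CPM at 3.5 h and 0.0529 CPM or less at 16 h. No treated culture at 3.5 h overlapped with a control. Within the groups the levels ran from 0.702 to 5.04 CPM with VWF and from 1.10 to 7.07 CPM with LPS.

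Tnfsf15 rose at 3.5 h with VWF (log2 7.07 ± 0.74 SE, adjusted p = 9.11e-06) and with LPS (log2 7.82 ± 0.68 SE, adjusted p = 1e-06). Because the controls held 4 counts in all, the ratio of summed counts scaled to library size was also taken. It was 182 with VWF (exact 95% counting interval 70.6 to 669) and 268 with LPS (104 to 986). VWF replicate 5 held 380 of the 644 VWF counts, and without it the ratio was 104 and the log2 difference 6.42 with an adjusted p of 2.34e-06. Without LPS replicate 2 the LPS ratio was 168. VWF and LPS overlapped (log2 -0.78 ± 0.57 SE, adjusted p = 0.296, 95% interval -1.91 to 0.34); without VWF replicate 5, the highest of its group, the log2 difference was -1.43 with an adjusted p of 0.0466.

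The counts of Tnfsf15 at 16 h were 9, 11, 23, 5 and 8 in VWF and 176, 103, 182 and 21 in LPS cultures, the lowest LPS culture being replicate 4. The VWF cultures lay above all controls, at a count ratio of 15.5 (5.72 to 58.8), higher without control replicate 1 or replicate 3 (25.6 without the latter), but the gene fell under the filter for that test. With no filter the log2 difference was 3.70 ± 0.99 (SE) at an adjusted p of 0.0256. LPS cultures remained far above control (log2 7.66 ± 0.92 SE, adjusted p = 8.02e-05), and VWF cultures were below LPS (log2 -3.95 ± 0.62 SE, adjusted p = 0.000352). Tnfsf15 fell with time in VWF cultures (log2 -3.54 ± 0.58 SE, adjusted p = 0.000222) and not detectably in LPS cultures (log2 -0.32 ± 0.65 SE, adjusted p = 0.700).

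The TNF receptors behaved unlike each other. Tnfrsf1a, the receptor with the death domain, did not move detectably with VWF. At 3.5 h the controls had 151, 177, 189, 174 and 183 CPM, the VWF cultures 151, 199, 203, 199 and 185 CPM and the LPS cultures 244, 349, 354 and 367 CPM. VWF overlapped with control throughout (log2 0.07 ± 0.10 SE, adjusted p = 0.621), with a 95% interval of -0.12 to 0.26. The sign turned with scaling by library totals, at -0.20 with an adjusted p of 0.0367.

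LPS cultures lay above control in Tnfrsf1a at 3.5 h, by 0.94 ± 0.12 SE, adjusted p = 3.56e-05, just under the fold threshold. LPS replicate 1 was lowest in its group, and without it the difference was 1.06 with an adjusted p of 2.66e-06. With scaling by library totals the LPS difference was 0.34 with an adjusted p of 0.0117.

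At 16 h the Tnfrsf1a values were 165, 181, 178, 167 and 85.8 CPM in control, 161, 172, 175, 147 and 174 CPM in VWF and 363, 368, 360.0 and 206 CPM in LPS cultures. The low values in control replicate 5 and LPS replicate 4 are those of the 2 outlying cultures. VWF did not differ detectably from control (log2 0.05 ± 0.17 SE, adjusted p = 0.894, and -0.10 with an adjusted p of 0.247 without control replicate 5). LPS was called (log2 1.11 ± 0.23 SE, adjusted p = 0.00266), with 1.13 with an adjusted p of 1.34e-07 without both outlying cultures, 0.97 with an adjusted p of 0.000853 without control replicate 5 alone, and 0.48 with an adjusted p of 0.183 with scaling by library totals. Between the times it differed by -0.18 ± 0.16 SE in control, -0.16 ± 0.09 SE in VWF and 0.02 ± 0.19 SE in LPS cultures, with adjusted p-values of 0.421, 0.174 and 0.943.

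Tnfrsf1b, the receptor without a death domain, was the only one of the 8 genes that was higher with VWF than with LPS at 3.5 h at an adjusted p below 0.05. The controls had 512, 612, 574, 718 and 586 CPM, the VWF cultures 3222, 3534, 3706, 3399 and 3978 CPM and the LPS cultures 2075, 2205, 2499 and 2276 CPM. The 3 groups did not overlap, and VWF was highest. Tnfrsf1b rose 5.85-fold with VWF (log2 2.55 ± 0.10 SE, adjusted p = 3.25e-09) and 3.86-fold with LPS (log2 1.95 ± 0.11 SE, adjusted p = 1.45e-08). The VWF to LPS difference was 0.59 ± 0.11 SE, adjusted p = 0.00179, under the fold threshold, and 0.93 with an adjusted p of 1.42e-05 with scaling by library totals.

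By 16 h the order was turned around. The Tnfrsf1b values were 409.6, 439, 451, 494 and 597 CPM in control, 583, 618, 754, 700.5 and 562 CPM in VWF and 2939, 2923, 3481 and 3414 CPM in LPS cultures. VWF now overlapped with control (log2 0.37 ± 0.13 SE, adjusted p = 0.0751, and 0.48 with an adjusted p of 0.00323 without control replicate 5), and LPS stood far above both (log2 2.78 ± 0.16 SE, adjusted p = 5.11e-07 against control). VWF cultures were 5.17-fold below LPS cultures (log2 -2.37 ± 0.13 SE, adjusted p = 2.04e-07). Tnfrsf1b fell with time in VWF cultures (log2 -2.45 ± 0.12 SE, adjusted p = 8.36e-09) and was 0.54 higher at 16 h in LPS cultures (SE 0.12, adjusted p = 0.00370), under the fold threshold. The difference between the agonists moved by -2.93 ± 0.16 SE, adjusted p = 3.05e-10.

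On the per-length scale the 2 receptors can be set side by side. The ratio of Tnfrsf1b to Tnfrsf1a TPM had a median of 2.30 in control (2.06 to 2.81), 12.4 in VWF (11.6 to 14.6) and 4.54 in LPS cultures (4.21 to 5.78) at 3.5 h. No group overlapped with another at that time. At 16 h the medians were 1.72 in control (1.65 to 4.72), 2.45 in VWF (2.19 to 3.23) and 6.03 in LPS cultures (5.39 to 11.2), and the highest control and LPS values are those of the outlying cultures. A ratio within a culture does not depend on the library scaling and shows unequal change, not which receptor changed.

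**Figure D3:**
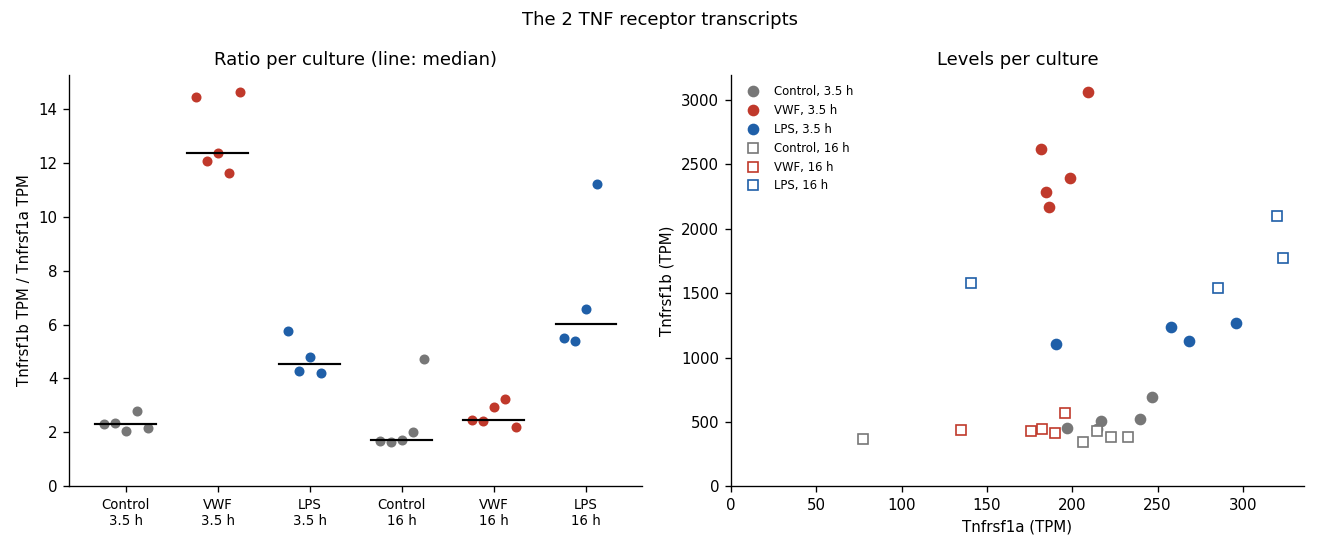
Left, ratio of Tnfrsf1b to Tnfrsf1a TPM in each culture by group, with the group median as a line; right, the TPM of Tnfrsf1b (vertical) against Tnfrsf1a (horizontal) in each culture, filled circles for 3.5 h and open squares for 16 h. The 5 VWF cultures at 3.5 h have ratios of 11.6 to 14.6, above all other cultures, and the VWF cultures at 16 h are back at 2.19 to 3.23.

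Across time, 6 of the 8 genes fell in VWF cultures between 3.5 h and 16 h (Tnf, Lta, Tnfsf9, Tnfsf10, Tnfsf15 and Tnfrsf1b), where 24.4% of 14173 genes were called and 13% fell. In LPS cultures only Tnf and Tnfsf9 fell, where 29.9% were called and 14.1% fell. Tested as an interaction, the VWF effect was smaller at 16 h for 4 of the 8 genes (Tnf, Tnfsf9, Tnfsf10 and Tnfrsf1b), where 13% of all genes were called and 7.46% were lower, and the LPS effect for 2 (Tnfsf9 and Tnfsf10), where 24.6% were called and 12.5% were lower. The difference of VWF from LPS became more negative for 6 of the 8 genes (Tnf, Lta, Ltb, Tnfsf10, Tnfsf15 and Tnfrsf1b), where 23.6% of all genes were called and 12% were lower. The 2 others were Tnfsf9 (-0.98 ± 0.37 SE, adjusted p = 0.0412) and Tnfrsf1a (-0.12 ± 0.21 SE, adjusted p = 0.682). The call of Ltb was lost in 12 of the 18 fits that left out 1 culture, among them that without LPS replicate 4 of 16 h (log2 -0.79 with an adjusted p of 0.0898), and Tnfsf9 was called in 7 of the 18, among them that without VWF replicate 5 of 3.5 h (log2 -1.10 with an adjusted p of 0.0234).

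A list of 6 receptors that bind these ligands was taken, and it does not hold every such receptor. In VWF cultures at 3.5 h, 2 of the 5 that could be tested rose: Tnfrsf14, a receptor of lymphotoxin alpha and of Tnfsf14 (log2 1.75 ± 0.29 SE, adjusted p = 0.000451), and Tnfrsf9, the receptor of Tnfsf9 (log2 3.42 ± 0.43 SE, adjusted p = 4.69e-05). Of all genes tested in that comparison 14.8% were called and 8.54% were higher, and the shares for LPS were 27.5% and 12.8% at 3.5 h and 27.9% and 14.3% at 16 h. The same 2 rose with LPS at 3.5 h (1.03 ± 0.23 SE and 3.77 ± 0.45 SE) and at 16 h (2.22 ± 0.29 SE and 3.56 ± 0.40 SE). The range of Tnfrsf14 with LPS at 3.5 h overlapped with control. With single cultures left out, that Tnfrsf14 difference was as low as 0.913, under the fold threshold. With VWF at 16 h Tnfrsf14 and Tnfrsf9 differed from control by 0.72 ± 0.25 SE, adjusted p = 0.0650, and by 0.96 ± 0.41 SE, adjusted p = 0.125. Ltbr, the receptor of the lymphotoxin heterotrimer, was well expressed (113 to 129.9 TPM in controls at 3.5 h) and differed from control by -0.11 with VWF and 0.04 with LPS at 3.5 h, the latter turning to -0.56 with scaling by library totals. Tnfrsf10b, the mouse death receptor of TRAIL, was 0.82 ± 0.30 SE with VWF and 0.42 ± 0.37 SE with LPS, neither called, and the LPS value turned to -0.17 with scaling by library totals. Tnfrsf11b, the decoy receptor osteoprotegerin, was -0.14 ± 0.49 SE and -0.37 ± 0.52 SE. Tnfrsf25, the receptor of Tnfsf15, had too few counts to be tested in any of these comparisons.

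Of the 12 other ligands of the superfamily, 8 could be tested at 3.5 h. With VWF 1 rose and 2 fell, where 14.8% of all genes were called, and the list median was -0.78, beside -0.01 over all genes tested. The riser was Tnfsf4 (log2 4.91 ± 0.43 SE, adjusted p = 1.79e-06), the ligand of OX40 on T cells, and the others were Tnfsf8 (log2 -2.02 ± 0.27 SE, adjusted p = 6.4e-05), the ligand of CD30, and Tnfsf18 (log2 -1.90 ± 0.31 SE, adjusted p = 0.000310), the ligand of GITR. With LPS 3 rose, where 27.5% of all genes were called: Tnfsf4 (8.30 ± 0.31 SE), Tnfsf8 (1.83 ± 0.23 SE) and Tnfsf14 (1.34 ± 0.28 SE), the last a ligand of Tnfrsf14 and the lymphotoxin beta receptor. Tnfsf8 thus fell with VWF and rose with LPS at the same time, and the direct comparison gave -3.87 ± 0.27 SE, adjusted p = 6.77e-07. At 16 h Tnfsf8 was below control with both, at -5.17 ± 0.32 SE for VWF and -1.46 ± 0.33 SE for LPS. The control itself was called higher at 16 h than at 3.5 h, with means of 27.8 and 6.61 CPM. The means at 3.5 h and 16 h were 1.66 and 0.791 CPM with VWF, and 22.9 and 9.71 CPM with LPS. Also at 16 h, Tnfsf4 was called higher with VWF (2.13 ± 0.61 SE, adjusted p = 0.0281) and with LPS (4.38 ± 0.62 SE). Tnfsf18 was called lower with VWF (-4.81 ± 0.57 SE, adjusted p = 0.000121), and Tnfsf13 (-1.76 ± 0.48 SE), Tnfsf14 (-1.70 ± 0.38 SE) and Tnfsf18 (-1.77 ± 0.52 SE) with LPS. The ranges of Tnfsf13 and Tnfsf18 with LPS overlapped with control.

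The list of 26 other receptors includes Tnfrsf9, Tnfrsf14 and the rest of the ligand-binding receptors listed above. Of the 26, 18 could be tested at 3.5 h. With VWF 5 rose (Cd40, Fas, Tnfrsf8, Tnfrsf9 and Tnfrsf14) and Tnfrsf22 fell, against 14.8% of all genes called, and with LPS the same 5 rose and 3 fell (Tnfrsf21, Tnfrsf22 and Relt), against 27.5%. Cd40, the receptor through which T cells activate macrophages, was called in all 6 comparisons: it rose by 6.13 ± 0.18 SE with VWF and 7.29 ± 0.17 SE with LPS at 3.5 h, and by 1.37 ± 0.08 SE and 5.88 ± 0.13 SE at 16 h, and it was lower with VWF than with LPS at both times (-1.17 ± 0.17 SE and -4.47 ± 0.11 SE). With VWF at 16 h, Cd40 rose and Tnfrsf18 fell among 19 tested, against 9.47% of all genes called.

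Of 25 genes of TNF receptor signaling, all were tested. With VWF at 3.5 h 8 rose, where 14.8% of all genes were called and 8.54% were higher, with a list median of 0.48, beside -0.01 over all genes tested. The largest rises were in Traf1 (log2 5.38 ± 0.20 SE, adjusted p = 2.14e-09), an adaptor recruited to Tnfrsf1b, Tnfaip3 (log2 2.95 ± 0.16 SE, adjusted p = 2.88e-08), the A20 deubiquitinase that dampens the pathway, and Birc3 (log2 2.49 ± 0.13 SE, adjusted p = 2.07e-08), a ubiquitin ligase of the receptor complex. The same 8 rose with LPS at 3.5 h, where 27.5% of all genes were called and 12.8% were higher. Tab1, an adaptor of the kinase TAK1, fell with LPS at that time (log2 -1.35 ± 0.12 SE, adjusted p = 9.95e-07). At 16 h VWF left 2 called, Traf1 (1.84 ± 0.14 SE) and Birc3 (1.21 ± 0.13 SE), against 9.47% of all genes, and LPS 7, against 27.9%. VWF and LPS differed in 1 of the 25 at 3.5 h, Traf3, higher with VWF (1.17 ± 0.14 SE, adjusted p = 4.38e-05), where 12.7% of all genes were called. At 16 h they differed in 8, all lower with VWF, where 27.1% of all genes were called and 14.5% were lower.

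**Figure D4:**
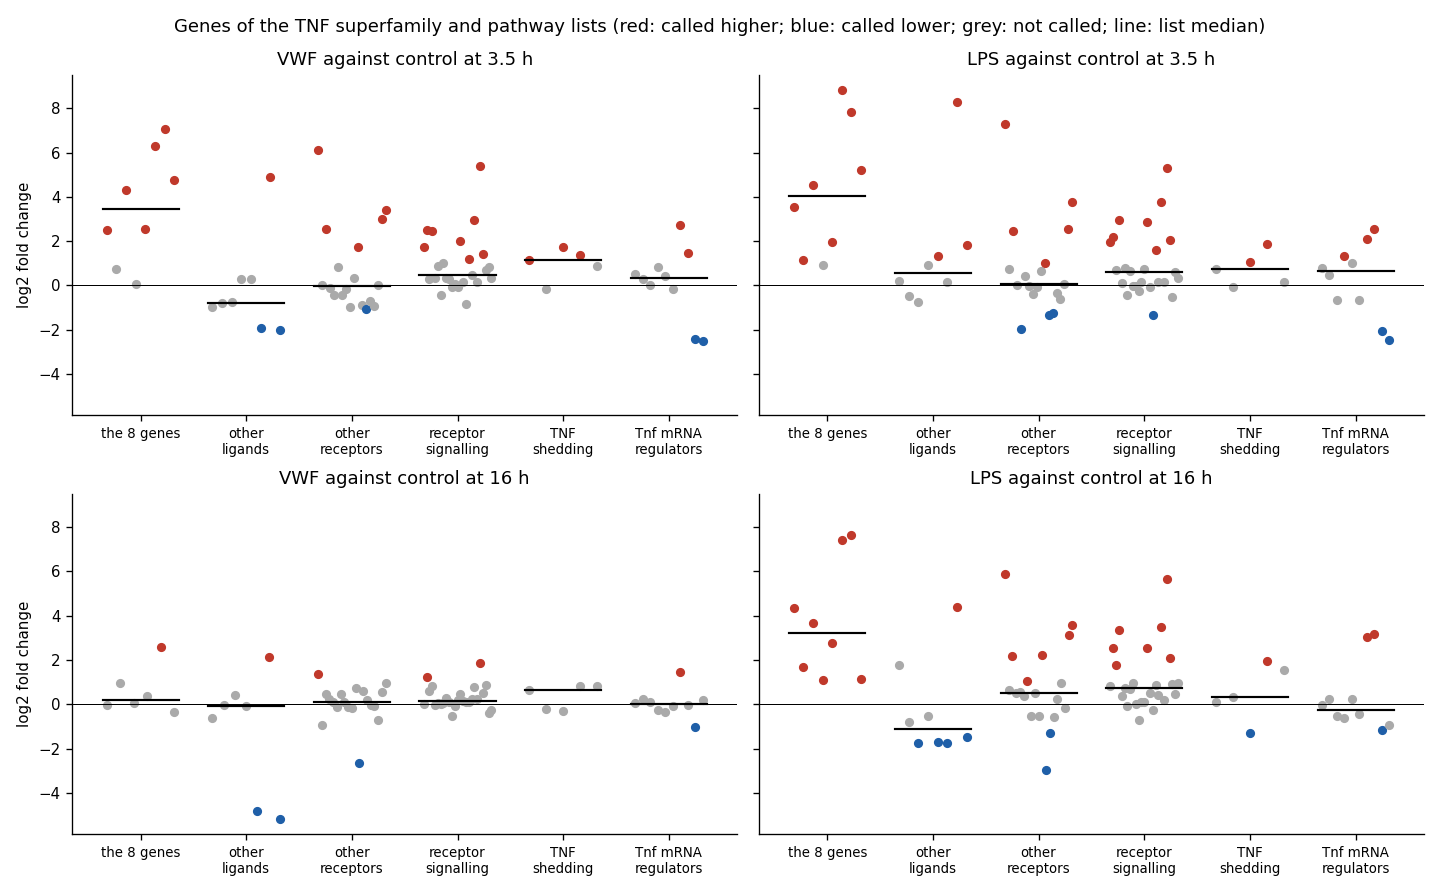
Log2 fold change against control (vertical axis) of the 8 genes and of 5 lists of related genes, in 4 panels by agonist and time; each point is a gene, red called higher, blue called lower, gray not called, and lines are list medians. With VWF at 16 h most points lie between -1 and 1, whereas with LPS at 16 h the 8 genes keep a median of 3.23.

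By mean CPM, the order of the 6 groups differed between the genes. For Lta it was LPS 16 h, LPS 3.5 h, VWF 3.5 h, VWF 16 h, control 3.5 h and control 16 h, where only VWF 3.5 h and VWF 16 h did not overlap as neighbors. For Ltb every pair of neighbors overlapped, from 2.06 ± 1.18 CPM (SD, n = 4) in LPS 16 h down to the 3.5 h control. For Tnfsf10 the order was LPS 3.5 h, LPS 16 h, VWF 3.5 h, VWF 16 h, control 16 h and control 3.5 h, with overlap only in the first and the last pair. Tnfsf9 and Tnfsf15 each had 1 clear step or more: below VWF 3.5 h for both, and below VWF 16 h for Tnfsf15. For Tnfrsf1a the LPS groups (328 ± 56.9 CPM (SD, n = 4) at 3.5 h and 324 ± 78.7 CPM (SD, n = 4) at 16 h) stood above the other 4 groups, which overlapped in a row. For Tnfrsf1b the order was VWF 3.5 h (3568 ± 290.3 CPM (SD, n = 5)), LPS 16 h, LPS 3.5 h, VWF 16 h, control 3.5 h and control 16 h, with clear steps on both sides of LPS 3.5 h. In TPM the order of some groups changed for Tnf, Ltb, Tnfrsf1a and Tnfrsf1b.

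On the TPM scale the genes can also be ranked within a group. In controls at 3.5 h the medians were 509 for Tnfrsf1b, 261 for Tnf, 217 for Tnfrsf1a and 18.5 for Tnfsf9, and the other 4 genes were at medians of at most 0.995 TPM. After 3.5 h of VWF the medians were 4189 for Tnf, 2394 for Tnfrsf1b, 416 for Tnfsf9, 187 for Tnfrsf1a and 7.96 for Tnfsf10. After 16 h of VWF they were 437 for Tnfrsf1b, 182 for Tnfrsf1a, 86.4 for Tnf and 10.2 for Tnfsf9, which is the order of the 16 h control.

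For each gene the 2 genes with the most similar profile were found by Pearson's r of log2 CPM over the 28 cultures among 15922 others. The profile closest to Tnf was Fas (r = 0.985), a death receptor of the same superfamily, followed by Zhx2 (0.982). Tnfsf10 was closest to Cmpk2 (0.995) and Ifit2 (0.995), both textbook interferon-induced genes. Tnfsf9 was closest to Col11a2 (0.980) and Rab12 (0.980), Tnfsf15 to Rapgef2 (0.969) and Dtx3l (0.968), and Tnfrsf1b to Plagl2 (0.969) and Ppfia3 (0.968). Tnfrsf1a was closest to Sptlc2 (0.961) and Nsd3 (0.932), Lta to Lipg (0.937) and 2010110E17Rik (0.936), and Ltb to 9530068E07Rik (0.895) and Selenot (0.883). The 28 cultures fall into 6 groups, so these values describe shared group differences, and by Spearman's rho other genes came first for several (Junb and Marcksl1 for Tnf).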

How the data were processed

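RNA from 28 BMDM cultures was sequenced as 150-base paired-end reads and, per the labels and the study's methods, mapped with STAR to GRCm38 (mm10). The authors deposited raw counts per gene for each culture, and these were used as they stand. For the annotation release, the strand setting and multimapped reads, the sources used here give nothing. In the study's methods genes were kept from 10 TPM and compared with DESeq2. Here a filter on counts (filterByExpr of edgeR, minimum 10) replaced it, since several of the 8 genes are low. Total counts were 41131209 to 77699206 per culture, which limits only genes of a few counts. Counting intervals and floors cover counting error only.

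For each comparison only the groups involved entered the fit, by the quasi-likelihood test of edgeR 4.0.16 in R 4.3.3 (TMM factors, robust), with Benjamini-Hochberg adjustment over all genes tested. DESeq2 1.42.0, other scalings, other filters, all groups in the fit, a replicate block and each culture left out were the alternatives. Leaving out both outlying cultures at 16 h was added after the data were seen. The code was tested on simulated counts. TPM used exon lengths of GENCODE M21. Promoter windows came from RefSeq (GRCm38.p6) and 3′ UTRs from GENCODE M21. Replicates were compared pairwise and no pair of the same group was within sampling noise.

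The 8 genes and all lists were chosen with earlier results of these data known. Named genes were the 8, the listed receptors of the ligands and the 2 closest profiles of each gene. Also named were called list members whose groups do not overlap and that change most (up to 3 in each direction). Where a list count is of 5 or fewer genes its members are named also. The values of 1 marker gene are not reported here.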

Additional observations from a re-analysis of the deposited data

Results flagged for a closer look

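In Tnfrsf1a, 1 culture lay far from the rest of its group in 3 groups. These were LPS replicate 1 at 3.5 h at 244 CPM, control replicate 5 at 16 h at 85.8 CPM and LPS replicate 4 at 16 h at 206 CPM, each the lowest of its group. They are 3 of 48 gene and group combinations tested with Dixon's criterion, and chance flags about 1 in 20. The same 3 cultures had the lowest summed macrophage markers of their groups.

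The effect of VWF against control differed between 3.5 h and 16 h, by an interaction term in edgeR, by -3.36 for Tnf, -5.10 for Tnfsf9, -3.69 for Tnfsf10 and -2.15 for Tnfrsf1b on the log2 scale. The effect of LPS differed between the times by -4.10 for Tnfsf9 and -1.41 for Tnfsf10. The difference of VWF from LPS moved by -2.47 for Tnf, -2.33 for Lta, -1.23 for Ltb, -2.24 for Tnfsf10, -3.14 for Tnfsf15 and -2.93 for Tnfrsf1b.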

How the results depend on the processing

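The number of the 8 genes called in each of 12 comparisons stayed within 1.5 times under DESeq2, under median-of-ratios factors and with the replicate block. With all groups in the fit it was 1 in place of 2 for VWF against LPS at 3.5 h, and 2 in place of 1 for VWF against control at 16 h. With the filter of 10 TPM it was 4 for LPS against control at 3.5 h, 5 at 16 h, 1 and 4 for VWF against LPS at 3.5 h and 16 h, and 0 for VWF against control at 16 h, because fewer of the 8 genes were tested, except that in VWF against LPS at 16 h Tnfrsf1a was tested and lay just under the fold threshold (-0.996). Scaling by library totals gave 5 for LPS against control at 16 h and 1 for VWF against LPS at 3.5 h. No filter, no fold threshold and leaving out the outlying cultures each gave 2 for VWF against control at 16 h, and no fold threshold gave 4 for VWF against LPS at 3.5 h, 4 for LPS between the times and 4 for the change of the LPS effect. Leaving out single cultures, the counts ranged from 1 to 2 for VWF against control at 16 h (Tnf joined without control replicate 5) and from 1 to 2 for VWF against LPS at 3.5 h (Lta was lost without VWF replicate 2 or LPS replicate 4, and without VWF replicate 5, where Tnfsf15 joined), and from 6 to 8 for LPS against control at 16 h. Unless a sentence names the cause, the cause was not tested.

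Signs that turned were mostly of differences near 0. With scaling by library totals the differences were 0.13 for Tnf in VWF against LPS at 3.5 h, -0.20 and -0.089 for Tnfrsf1a with VWF at 3.5 h and 16 h, and 0.11 for the change of its VWF effect. On that scale Ltbr was at -0.56 and -0.11 with LPS at 3.5 h and 16 h and at 0.18 and 0.24 in VWF against LPS, Tnfrsf10b was at -0.17 and -0.26 with LPS and 0.0053 in VWF against LPS at 16 h, and Tnfrsf11b was at -0.057 with VWF at 16 h. With all groups in the fit Ltb with VWF at 16 h was 0.015, the change of the VWF effect on Tnfrsf1a 0.0099 and Tnfrsf1a in LPS cultures between the times -0.0029, and the last was -0.0014 under DESeq2 and under median-of-ratios factors. With the 10 TPM filter Ltbr with LPS at 3.5 h was -0.034, Tnfrsf1a with VWF at 16 h -0.018 and the change of its VWF effect 0.0051. Ltb with VWF at 16 h was 0.013 with no filter. Without the outlying cultures Ltb was -0.22 in control between the times and 0.69 with VWF at 16 h, Tnfrsf11b was -0.13 and Tnfrsf1a -0.10 with VWF at 16 h.

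Leaving out each culture in turn, the differences that turned ranged from -0.21 to 0.69 (Ltb, VWF at 16 h), -0.22 to 0.70 (Ltb, control between the times), -0.098 to 0.093 (Tnfrsf1a, VWF at 16 h), -0.17 to 0.052 (Tnfrsf1a, change of the VWF effect), -0.097 to 0.16 (Tnfrsf1a, LPS between the times), -0.54 to 0.44 (Tnfsf15, change of the LPS effect), -0.67 to 0.29 (Tnfsf15, LPS between the times), -0.055 to 0.13 (Ltbr, LPS at 3.5 h) and -0.25 to 0.0020 (Tnfrsf10b, VWF at 16 h). For Tnfrsf11b they ranged from -0.56 to 0.38 and -0.38 to 0.61 with VWF at 3.5 h and 16 h, -0.87 to 0.15 and -0.96 to 0.0034 with LPS, and -0.20 to 0.71 in VWF against LPS at 3.5 h.

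The replicate numbers were not taken to pair the cultures. Nothing in the labels ties a number to a mouse or day. For no pair of groups did every same-numbered pair of cultures deviate together with a correlation over 0.1. A single deviating culture defeats this criterion, so it cannot show that the numbers carry no shared effect. Same-numbered correlations ran from -0.390 to 0.499. The closest cases were LPS at 3.5 h with VWF at 16 h (0.0595 to 0.192) and VWF with LPS at 16 h (0.0577 to 0.499). With the replicate block the count for LPS against control at 16 h was 7, Tnfrsf1a being no longer called (0.94 with an adjusted p of 0.00300), the counts in the other 11 comparisons were those of the fit without it, and Ltb with VWF at 16 h was 0.28 and the change of the VWF effect on Tnfrsf1a 0.018. By Spearman's rho other genes had the closest profile for most of the 8. Depth limits Lta, Ltb and Tnfsf15 among the 8, which had few counts. It also limits some list genes with large differences. Mean levels were 0.0817 CPM for Tnfsf4 and 0.173 CPM for Tnfrsf9 in control at 3.5 h. In VWF cultures at 16 h they were 0.0384 CPM for Tnfsf18 and 0.123 CPM for Tnfrsf18.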

Other observations

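Genes that promote or restrain the release of TNF from the cell surface formed a list of 5 (Adam17, Rhbdf1, Rhbdf2, Frmd8 and Timp3). Of these, 3 rose after 3.5 h of VWF, where 8.54% of all genes tested were called higher. Adam17, the protease that cuts membrane TNF and both TNF receptors, differed from control by 1.16 ± 0.10 SE, adjusted p = 1.58e-06, on the log2 scale. Rhbdf1 and Rhbdf2, the inactive rhomboids that carry ADAM17 to the surface, differed by 1.75 ± 0.14 SE, adjusted p = 6.17e-07, and 1.37 ± 0.09 SE, adjusted p = 1.6e-07. With LPS at 3.5 h Rhbdf1 (1.05 ± 0.15 SE) and Rhbdf2 (1.86 ± 0.10 SE) rose, where 12.8% of all genes tested were called higher. Adam17 was at 0.72 ± 0.10 SE, adjusted p = 6.25e-05, in the same comparison, under the fold threshold. Between VWF and LPS at that time Adam17 differed by 0.43 ± 0.11 SE, adjusted p = 0.00990, also under it. At 16 h Rhbdf2 was still called with LPS (1.95 ± 0.10 SE, adjusted p = 2.01e-07), and with VWF it was at 0.83 ± 0.11 SE, adjusted p = 0.000297. Rhbdf1 was called lower with LPS at 16 h (-1.29 ± 0.38 SE, adjusted p = 0.0185), but its range overlapped with control. Leaving out single cultures, 1 to 2 of the 5 genes were called in that comparison, where 27.9% of all genes tested were called. The Rhbdf1 difference with LPS at 3.5 h then ranged from 0.977 to 1.13.

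Of 10 regulators of Tnf mRNA, 2 rose and 2 fell after 3.5 h of VWF, where 14.8% of all genes tested were called. The risers were Zc3h12a, the RNase Regnase (2.73 ± 0.12 SE, adjusted p = 5.58e-09), and Zfp36, which binds the AU-rich nonamer (1.45 ± 0.18 SE, adjusted p = 3.82e-05). Its relatives Zfp36l1 and Zfp36l2 fell (log2 differences of -2.41 ± 0.16 SE, adjusted p = 1.73e-07, and -2.50 ± 0.20 SE, adjusted p = 7.88e-07). With LPS at 3.5 h the same 4 genes were called in the same directions, with Zfp36 at 2.57 ± 0.19 SE and Zc3h12a at 2.11 ± 0.14 SE. Rc3h1 rose as well (1.34 ± 0.11 SE), and 27.5% of all genes tested were called in that comparison. Zfp36 was lower with VWF than with LPS at 3.5 h (-1.14 ± 0.12 SE, adjusted p = 1.52e-05) and at 16 h (-3.18 ± 0.24 SE, adjusted p = 2.15e-06). At 16 h Zfp36 differed from control by -0.05 ± 0.26 SE, adjusted p = 0.922 with VWF, and by 3.17 ± 0.26 SE, adjusted p = 5.69e-06 with LPS. With VWF at 16 h Zc3h12a was still called higher (1.48 ± 0.25 SE, adjusted p = 0.00141) and Zfp36l1 lower (-1.04 ± 0.23 SE, adjusted p = 0.00667), where 9.47% of all genes tested were called. Leaving out single cultures, the Zfp36l1 difference ranged from -1.14 to -0.75 and so crossed the fold threshold.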
